A study of Mus musculus with 20 samples.

Results

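The data described here are the peaks of chromatin immunoprecipitation and sequencing around Pou5f1, the gene of the POU factor Oct4, in mouse cells. Members are all peaks, over 18 peak lists, whose midpoint lay on chromosome 17 between 35600000 and 35680000 of build mm9. That window is 80 kb long, with Pou5f1 on the plus strand at about 35.643 to 35.648 Mb. It held 228 peaks of the 765133 in the 18 lists, which is 0.0298%. Distances are given in kb from the gene start, which is known only to the nearest 1 kb, and negative distances lie upstream.

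The study asked where Oct4 and the HMG-box factors Sox2 and Sox17 bind together in a pluripotent and in a primitive endoderm context. KH2 ES cells received doxycycline at 1 µg/ml, which induced 1 of 4 V5-tagged Sox proteins. Sox17EK and Sox2 carry a lysine at the residue where Sox2KE and Sox17 carry a glutamate, Sox17EK and Sox2KE being mutants with that residue exchanged. F9 embryonal carcinoma cells were given 1 µM retinoic acid (F9+RA), which turns them into primitive endoderm, or were left without it (F9). There were 7 Oct4 lists of ES lines (replicates A and B of the Sox17EK, Sox2 and Sox2KE lines, and A of the Sox17 line) and 8 Sox lists of the same lines (A and B for each protein). F9+RA cells gave 1 Sox17 list and 1 Oct4 list, and F9 cells 1 Oct4 list. In ES cells only V5 is named as the antibody for Sox17EK, Sox2 and Sox2KE, and both Sox17 and V5 for Sox17. Oct4 lists of ES cells name both Oct4 and V5, so peaks of a tagged Sox protein in them cannot be told apart from peaks of Oct4. Lists of F9 and F9+RA cells name the antibody to the factor itself. All ES lists come from cells that also make an induced Sox protein, and no ES list without induction was used here.

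Oct4 is a core regulator of pluripotent cells and is required for their self-renewal, and its gene is switched off as most lineages form. Oct4 and Sox2 often bind side by side on composite DNA elements, and Oct4 is known to bind enhancers of its own gene upstream of the promoter, so that the locus is a textbook case of autoregulation. Sox17 is a regulator of endoderm that can take the place of Sox2 beside Oct4 on a composite element with another spacing, and the lysine or glutamate exchanged here lies at the contact with Oct4. The promoter itself lacks a TATA box and is known for a GC box and a nuclear receptor half-site.

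The 250 bases upstream of the annotated start are shown because the strongest Sox17 peak of F9+RA cells lay over the start of the gene. The sequence is RefSeq's, from build GRCm38.p6, chr17:35505782-35506031, plus strand. It cannot be placed base by base on the mm9 peaks. Capitals mark the GC box, which begins 45 bases before the start, and the half-site, which begins 33 bases before it.
Pou5f1 promoter: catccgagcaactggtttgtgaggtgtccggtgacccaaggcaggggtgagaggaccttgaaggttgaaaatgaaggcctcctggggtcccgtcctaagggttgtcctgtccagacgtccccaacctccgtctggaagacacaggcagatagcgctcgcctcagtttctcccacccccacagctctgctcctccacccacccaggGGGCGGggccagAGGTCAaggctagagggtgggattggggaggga
On both strands of the full entry, which runs 50 bases past the start, the GC box GGGCGG was found 1 time and the half-site AGGTCA 1 time. Of 32851 promoters of the same length, 35.7% hold that GC box and 16.3% that half-site. The octamer ATGCAAAT was found 0 times (1.74% of promoters hold it), as were the Sox cores CATTGT (12.6%) and CTTTGT (18.7%). These matches describe the letters of 1 window and nothing else.

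Each peak has a score, the authors' value read as 10 times −log10 of the caller's p-value, with a lowest value near 50 in every list. A rank is 1 plus the number of stronger peaks of the same list, so that tied peaks share the best rank of the tie. Up to 862 peaks of a list share the score 3100 (Oct4, Sox17EK line A). It is not the highest score of every list, since peaks at 3100 rank 84 in the Oct4 list A of the Sox2 line. Lists ran from 5836 peaks (Sox17 ES B) to 84196 peaks (Oct4 F9+RA), and the number of reads behind them was not known. Scores and ranks of different lists are set side by side and are no measure of change between them. Midpoints within 200 bp of each other were joined into regions, which gave 45 in the window, 28 of them in at least 2 lists. Wide peaks span several sites, so elements were also defined, after the data were seen, from midpoints of peaks up to 1200 bp wide found in at least 2 lists. There were 26 elements, and a list held an element where 1 of its peaks covered the element's centre.

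Peaks were dense around Pou5f1 in every list. Set against all 33022 windows of 80 kb, the Pou5f1 window stood among the richest few percent. For Oct4, the Sox17EK line had 19 and 18 peaks, counts reached by 0.263% (A) and 0.0666% (B) of windows. The Sox2 line had 16 and 9 Oct4 peaks (0.200% and 0.700% of windows), the Sox2KE line 17 and 11 (0.176% and 0.270%), and the Sox17 line 13 (0.167%). For the Sox proteins of ES cells the counts were lower in most lists. Sox17EK had 11 peaks in both lists (0.209% of windows in A, 0.179% in B), and Sox2 had 8 and 9 (0.812% and 0.179%). Sox2KE had 13 and 19 peaks (0.0575% and 0.154%), and Sox17 had 5 in both lists (0.436% and 0.0818%). The Sox17 list of F9+RA cells held 8 peaks, a count reached by 2.22% of windows. Oct4 held 19 peaks in F9+RA cells (1.04%), against 17 in F9 cells (0.769%). The counts followed the lengths of the lists in part, and the Sox17 lists of ES cells were the shortest of all.

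**Figure D1:**
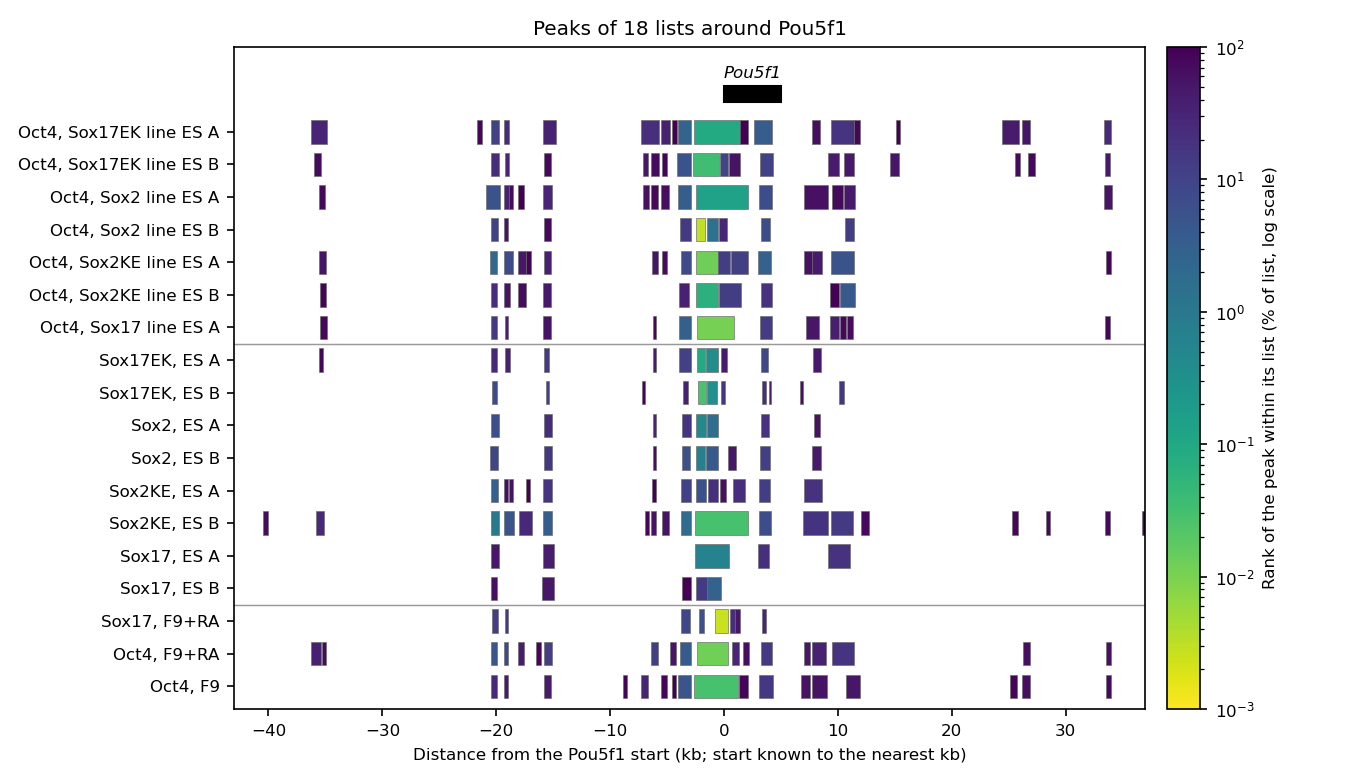
Every peak of the 18 lists in the 80 kb window, by distance from the Pou5f1 start in kb (x axis) and by list (y axis), with the colour giving the rank within the list as a percent of the list on a log scale. Columns at -20.2, -3.4 and -2.0 kb run through nearly all lists, and the strongest peak of 17 of the 18 lists lies over the start of the gene or within 3 kb upstream of it.

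Sites in this window were shared by more lists than most sites of the genome. Of the 45 regions, 1 was held by all 18 lists, against 0.173% of all regions of the genome, and 2 by all 8 Sox lists of ES cells, against 0.463%. At least 17 lists held 4 regions, against 0.537% of all regions. Conversely, 17 regions (37.8%) were held by 1 list, against 52.6% of all regions. Of the 26 elements, 2 were covered in all 18 lists (0.466% of all elements) and 6 in at least 17 lists, which is 23.1% against 1.50%. Those 6 elements lie at -20.2, -15.5, -3.4, -2.0, -1.0 and +3.6 kb. The share of elements at Pou5f1 was not tested against the genome, since the locus was chosen for what it is known for.

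In all lists but Sox2KE A, Sox17 ES B and Sox17 of F9+RA cells, no peak of the window scored higher than the one over the -2.0 kb element, centred at 35640993. In 10 lists that peak also covered the -1.0 kb element, so these 10 give no order between the pair. It was the only element of the 26 that lay among the 5836 strongest peaks of all 18 lists, which 0.0441% of elements did. For Sox17 ES B, 5836 is the whole list, so any of its peaks counts here and below. Oct4 peaks over the -2.0 kb element scored 3100 in 6 of the 7 lists of ES lines. Their ranks were 64 and 16 in the Sox17EK line (A and B), 84 and 1 in the Sox2 line, and 7 in replicate A of the Sox2KE line. Replicate B of the Sox2KE line scored 2439, rank 21, and the Sox17 line scored 3100, rank 4. Ties at 3100 run from 5 peaks (Sox2 line B) to 862 peaks (Sox17EK line A), so that peaks at 3100 have no finer order. By these shared ranks the element lay within the top 0.133% of every Oct4 list of ES lines. A shared rank is the best place of its tie, which holds 690 peaks in the Sox2 line A, so the place within the tie is not known.

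Sox peaks at the -2.0 kb element covered a wider span of ranks. Sox17EK scored 2568 (rank 27) in A and 1829 (rank 10) in B, and Sox2 scored 1270 (rank 145) in A and 974.5 (rank 162) in B. All 4 lists of lysine proteins thus had it in the top 0.677%. Sox2KE scored 461 (rank 1913) in A and 3100 (rank 20, tied among 78 peaks) in B, where 1 interval of 4688 bp covered the element and 4 others. Sox17 scored 826 (rank 64) in A, in an interval of 2992 bp, and 141 (rank 874) in B. The glutamate lists ranged from the top 0.0279% to the top 15%. They overlapped the lysine lists only through Sox2KE B and Sox17 A, whose wide intervals give no separate score for -2.0 kb. Sox2KE A (5.78%) and Sox17 B (15%), with peaks that cover this element alone, stood below all 4 lysine lists. Replicates lay far apart for Sox2KE (5.78% in A, 0.0279% in B) and for Sox17 (0.621% in A, 15% in B). No test was made on these ranks, since the lists differ in length.

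Next to it, the -1.0 kb element, centred at 35641958, was covered in 17 lists and was missing only from Sox17 in F9+RA cells. In 10 lists 1 wide interval held both elements, among them 6 of the 7 Oct4 lists of ES lines. Separate peaks were listed in 7. Of these, the Oct4 list B of the Sox2 line had 845 at -1.0 kb, and its score at -2.0 kb, which is the tied value 3100, was 3.67 times as high. With both scores below 3100, the ratio of the -2.0 to the -1.0 kb score was 1.48 and 2.21 for Sox17EK, 1.56 and 1.94 for Sox2, and 2.2 for Sox2KE A. Sox17 ES B was the exception, with 357 at -1.0 kb, rank 154, and a ratio of 0.394. Sox17 was thus the only protein with a list in which the site nearer the gene was the stronger of the pair, and its other ES list could not show an order because both lay in 1 interval. In Sox2KE A the -1.0 kb peak scored 209 and ranked 6605, outside the 5836 strongest, whereas the other 16 lists with the element had it among them.

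**Figure D2:**
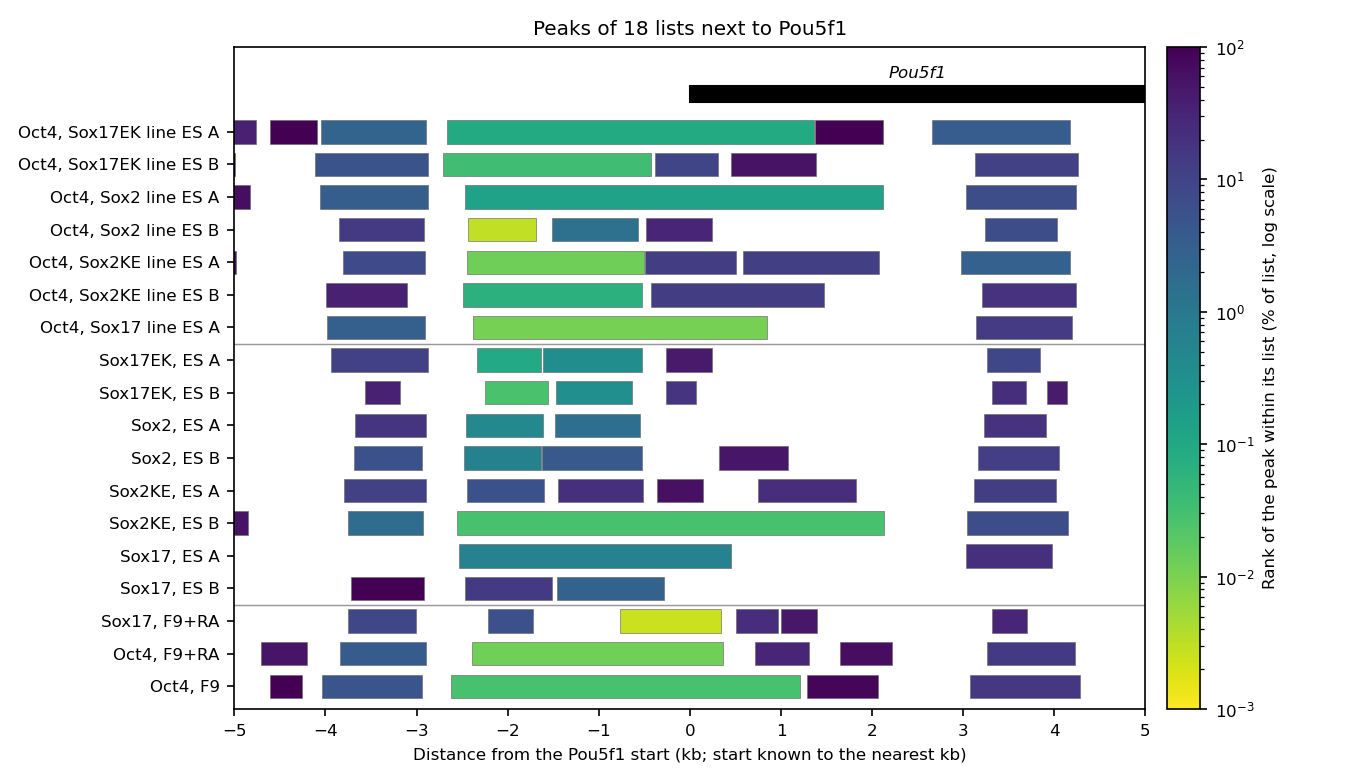
Peaks of the 18 lists from 5 kb before to 5 kb after the Pou5f1 start, drawn to scale by distance in kb (x axis) and list (y axis), coloured by rank within the list in percent on a log scale. Sox2 and Sox17EK show a separate pair of peaks at -2.0 and -1.0 kb, Oct4 mostly 1 wide interval, and Sox17 of F9+RA cells its strongest peak over the start.

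At the start of the gene, Sox17 differed in rank between F9+RA cells and ES cells. The element at -0.1 kb, centred at 35642901, was covered in 15 lists. In F9+RA cells, Sox17 had 1 peak there of 1105 bp, chr17:35642233-35643337, with a score of 3100. It ranked 1, tied among 3 peaks of 39768, which is the top 0.00251%. At -2.0 kb the same list scored 210 (rank 2367), and at -3.4 kb 174 (rank 3423). In ES cells, Sox17 replicate B had no peak over the -0.1 kb element, and replicate A covered it only through its 2992 bp interval from 35640465 to 35643456. The midpoint of that interval lay at the -1.0 kb element. Other lists of ES cells with a peak over the start but not over -2.0 kb scored less there. Oct4 scored 516 in the Sox17EK line B (rank 4325), 170 in the Sox2 line B, 438 in the Sox2KE line A, and 437 in the Sox2KE line B (rank 4246), where the interval also covers +1.0 kb. It scored 94.4 and 120 for Sox17EK and 78.1 for Sox2KE A. Neither Sox2 list had a peak there. The order of the start and -2.0 kb in the Sox17 list of F9+RA cells was therefore the reverse of that in every ES list that separates them. There is 1 library per condition in F9 and F9+RA cells, so this contrast has no replicate check.

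Sox17 held 7 elements in F9+RA cells and 4 in both ES lists, with 2 in common, at -20.2 and -2.0 kb, which is 28.6% of the F9+RA set and 50% of the ES set. Counting elements in at least 1 of the ES lists, there were 10, and 5 were in common (71.4% of the F9+RA set). The -15.5 and -1.0 kb elements were covered in all lists but the Sox17 list of F9+RA cells, a pattern that 0.558% of all elements have. In turn, the Sox17 list of F9+RA cells had a peak at -19.1 kb (137, rank 5388), where neither Sox17 list of ES cells had one. All 7 elements of Sox17 in F9+RA cells were also held by Oct4 in F9+RA cells, which is 31.8% of the 22 that Oct4 held there. That Oct4 list holds 84.6% of all 26 elements. The Sox17 list of F9+RA cells has 39768 peaks, against 10301 and 5836 in the ES lists.

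Oct4 had its strongest peak of the locus over the -2.0, -1.0 and -0.1 kb elements with and without retinoic acid. That interval scored 3100 in F9+RA cells (rank 10, 51 tied, 2759 bp), and also 3100 in F9 cells (rank 18, 134 tied, 3825 bp). In F9 cells it also covered the +1.0 kb element. Neither list gives an order among the elements in its interval, so the strongest site among them is not known. At -3.4 kb Oct4 scored 666 in F9+RA cells (top 3.75% of the list), against 802 in F9 cells (4.76%). At +3.6 kb, inside the gene, it scored 302 in F9+RA cells (14.4%), against 358 in F9 cells (16%). At these 3 places the percentages of the lists were similar, and at several others they were not. At -20.2 kb Oct4 scored 576 in F9+RA cells (5.03%), against 239 in F9 cells (26.1%). At -19.1 kb it scored 444 in F9+RA cells (8.05%), against 126 in F9 cells (47.6%), and at -15.5 kb 337 in F9+RA cells (12.3%), against 139 in F9 cells (44%). At 8.2 kb it scored 136 in F9+RA cells (34.8%), against 100.02 in F9 cells (57.5%). At 11.0 kb it scored 251 in F9+RA cells (18%, in an interval over 3 elements), against 114 in F9 cells (51.9%). The +1.0 kb element had a separate peak of 156 in F9+RA cells (30.2%). In F9 cells it lay in the interval that scored 3100 (0.0279%), which gives no separate score for it, so no direction can be read there. The lists have 84196 and 64582 peaks, so these percentages are no measure of change. In F9+RA cells -20.2 kb outscored +3.6 kb, and in F9 cells +3.6 kb outscored -20.2 kb, a comparison made within each list. Oct4 held 22 elements in F9+RA cells, against 19 in F9 cells, with 16 in common (72.7% and 84.2%). The -6.1 kb element (345, top 11.9%) was among the 6 found in F9+RA cells alone, and the -6.9 kb element (196, top 32%) among the 3 found in F9 cells alone. With 1 library each there is no test.

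The -20.2 kb element, centred at 35622830, was the other one covered in all 18 lists, and lay among the 5836 strongest peaks in 13. Midpoints of its 18 peaks had an SD of 59.2 bp and spanned 229 bp, so all lists place it within the width of 1 peak. Oct4 scores were 797 and 243 (Sox17EK line), 1335 and 317 (Sox2 line), 1039 and 302 (Sox2KE line) and 292 (Sox17 line). Each A list scored higher than its B list. Sox17EK scored 157 and 194, and Sox2 421 and 334. Sox2KE scored 632 in A and 1725 in B, ranks 1021 and 691. Sox17 scored 81.9 and 62.6, in the lower part of both lists (50.2% and 64.6%). These 2 lists are short, and the ranks there were 5174 and 3771, against 7428 and 2778 for Sox17EK. Sox2KE therefore had the site higher in its lists (3.08% and 0.964%) than Sox2 (6.64% and 9.35%), with no overlap between these 4 libraries (not tested). By percent, the other mutant, Sox17EK (26% and 7.57%), and Sox17 had it lower than Sox2KE, in lists of unlike length. In Sox2KE A the -20.2 kb peak was the strongest of the whole window, and in the other 17 lists -2.0 kb outscored -20.2 kb.

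At -15.5 kb, centred at 35627515, most Sox lists of ES cells had the peak at a higher rank than the Oct4 lists did. Oct4 scores were 281 and 71.9 (Sox17EK line), 310 and 63.9 (Sox2 line), 177 and 135 (Sox2KE line) and 96.6 (Sox17 line). Its ranks ran from 15802 to 35433, and 0 of the 7 lists had it among the 5836 strongest peaks. Sox17EK scored 257 and 157, Sox2 182 and 238, Sox2KE 231 and 1026, and Sox17 92.6 and 74.4. The 2 Sox17 lists are too short to hold ranks like those of Oct4, and are left out of the counts that follow. In the 6 lists of Sox17EK, Sox2 and Sox2KE the ranks ran from 2451 to 7284, and 5 of the 6 had the element among their 5836 strongest peaks, Sox2 A being the exception. Of all elements, 0.0358% (39) are among the 5836 strongest of at least 5 of these 6 lists and of 0 Oct4 lists of ES cells. As a percent of the list, Oct4 stood at 30.6% to 79.8% and these 6 lists at 3.42% to 22.6%, while the Sox17 lists (41.2% and 48.7%) overlapped Oct4. The element was singled out after its values were seen and was not tested. In F9+RA cells Oct4 had it at rank 10352.

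**Figure D3:**
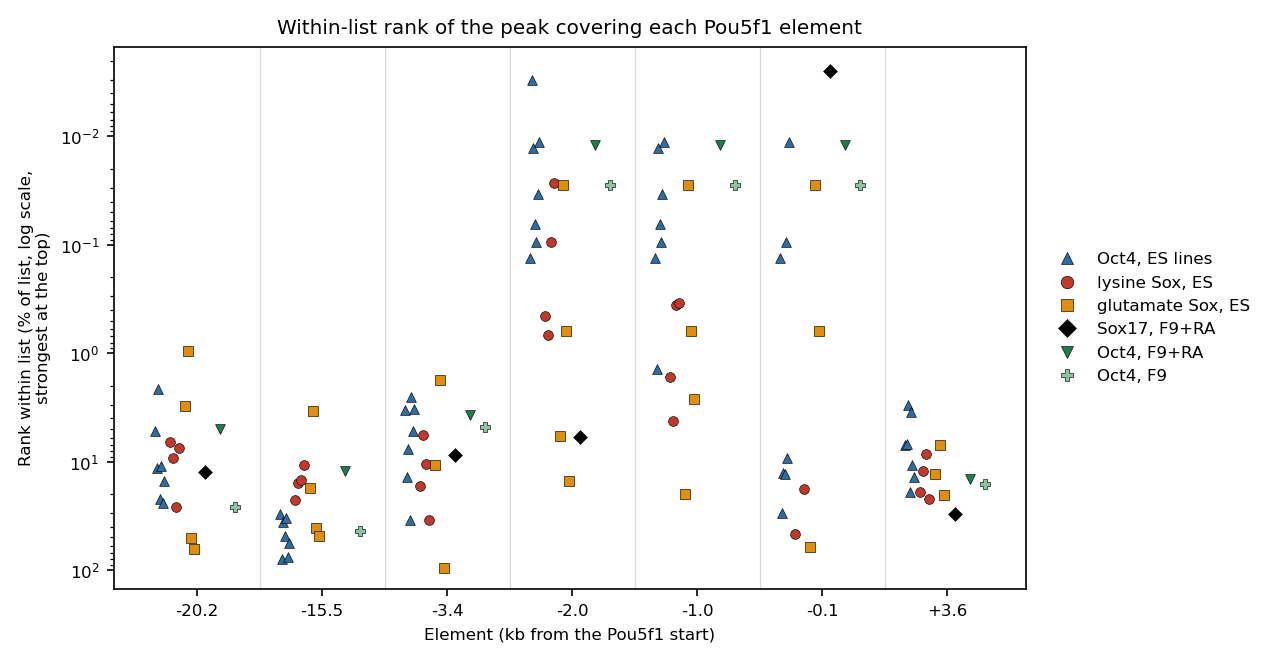
Rank within its list of the peak that covers each of 7 elements (x axis, kb from the Pou5f1 start), as a percent of the list on a log scale with the strongest at the top, 1 point per list. At -15.5 kb the 7 Oct4 lists of ES lines stand between 30.6% and 79.8%. At -2.0 kb all 7 lie within the top 0.133%, where tied peaks are given the best rank of the tie. At -0.1 kb the Sox17 list of F9+RA cells lies above all others.

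The -19.1 kb element, about 1 kb from the -20.2 kb one, was held by 13 lists and scored below -20.2 kb in all 13. All 7 Oct4 lists of ES lines held it, with 591 in the Sox2KE line A the highest and 97.4 in the Sox2 line B the lowest. Of the 8 Sox lists of ES cells, Sox17EK A (119), Sox2KE A (78.7) and Sox2KE B (875) held it. No Sox2 or Sox17 list of ES cells did.

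The -3.4 kb element, centred at 35639626, was covered in 17 lists, all but Sox17 ES A, and was among the 5836 strongest peaks in 15. Oct4 scores were 2217 and 755 (Sox17EK line), 1812 and 283 (Sox2 line), 591 and 200 (Sox2KE line) and 735 (Sox17 line). Sox17EK scored 335 and 89.8, Sox2 228 and 436, and Sox2KE 319 and 1389. Sox17 ES B had 50.9, almost the lowest score its list holds. The -2.0 kb element outscored -3.4 kb in all 17 lists.

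The +3.6 kb element, centred at 35646585, lies within the span of the gene and was covered in 17 lists, all but Sox17 ES B. Oct4 scores were 1828 and 466 (Sox17EK line), 1099 and 415 (Sox2 line), 912 and 336 (Sox2KE line) and 310 (Sox17 line). Sox17EK scored 389 and 109, Sox2 207 and 282, Sox2KE 278 and 714, and Sox17 ES A 140. The site had ranks of 2.99% to 19.2% for Oct4 and 7.02% to 22.1% for Sox in ES cells, ranges that overlap. Inside the gene, the +1.0 kb and +1.8 kb elements were held by 11 and 7 lists, in part through the wide interval that starts at -2.5 kb. Which exon or intron these sites lie in is not given, because no mm9 annotation was used.

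The remaining elements were each held by at most 11 lists. Between -6.9 and -4.4 kb, elements at -6.9, -6.1, -5.2 and -4.4 kb were held by 5, 11, 6 and 3 lists, none of them among the 5836 strongest peaks of any list. The -6.1 kb element was in both Sox2 lists (139 and 73.6) and in 5 of the 7 Oct4 lists of ES lines. Downstream of the gene, elements at 7.3, 8.2, 9.7, 10.4 and 11.0 kb were held by 7, 11, 9, 9 and 11 lists. At 11.0 kb all 7 Oct4 lists of ES lines held the element, with 750 (rank 1383) in the Sox2KE line B the highest rank. That peak, which also covers 10.4 kb, outscored those at -20.2, -15.5, -3.4 and +3.6 kb in the same list. Of the 8 Sox lists of ES cells only Sox2KE B and Sox17 A did, through intervals of 1964 and 1905 bp. In gene order on GRCm38 the next gene downstream is Tcf19, followed by Cchcr1, Psors1c2 and Cdsn, and upstream lie Gm32362, H2-Q10 and Gm8752. The window was not assigned to them, for want of mm9 positions. At the far ends, elements at -35.8 and -35.3 kb were held by 4 and 8 lists, those at -17.8 and -17.2 kb by 5 and 3, and those at 25.6, 26.5 and 33.7 kb by 4, 3 and 8. Regions by midpoint that do not appear as elements lay at -1.5, 7.8 and 10.0 kb, in 3, 2 and 2 lists. The 17 regions of 1 list scored 51.6 to 448. The one highest in its list by percent was in the Oct4 list A of the Sox17EK line at -6.5 kb (35635708 to 35637250, rank 14486, the top 21.2%). That interval covers the -6.9 and -6.1 kb elements, which other lists hold, so its region is of 1 list by midpoint only.

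Just past the upper edge of the window, 13 of the 18 lists had a further peak midpoint within 0.5 kb, which the rule leaves out. None of the 18 had one within 0.5 kb below the lower edge, and the nearest there lay 22.8 kb away.

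Lists of different length were compared at equal length, by the number of regions of the window that held a peak among the 5836 strongest of each list. For Sox17 ES B this is the whole list, down to a score of 50.03. The weakest peak counted in the Oct4 list A of the Sox17EK line scored 974.67. Oct4 in lines of lysine proteins had 3 and 4 regions (Sox17EK line) and 4 and 6 (Sox2 line), against 6 and 3 (Sox2KE line) and 4 (Sox17 line) in lines of glutamate proteins. The means were 4.25 ± 1.26 (SD, n = 4) and 4.33 ± 1.53 (SD, n = 3), a difference of -0.0833 (exact two-sided permutation test, p = 1, or 1 after adjustment). Lysine Sox proteins had 5 and 4 regions (Sox17EK) and 4 and 6 (Sox2), against 5 and 6 (Sox2KE) and 5 and 5 (Sox17) for glutamate proteins. The means were 4.75 ± 0.957 and 5.25 ± 0.5 (SD, n = 4 each), a difference of -0.5 (exact two-sided permutation test, p = 0.629, or 0.943 after adjustment). Oct4 averaged 4.29 ± 1.25 regions (SD, n = 7) and Sox 5 ± 0.756 (SD, n = 8), a difference of -0.714 (exact two-sided permutation test, p = 0.225, or 0.676 after adjustment). The Oct4 and Sox lists come from the same lines, and this test did not pair them by line. Values were adjusted over these 3 tests by the Benjamini-Hochberg method, and the smallest p the designs allow is 0.0286, 0.0286 and 0.000155. All 3 pairs of groups overlapped and no difference passed 0.05, which does not show that the groups are alike. The difference of Oct4 minus Sox turned to 4.57 regions with all peaks of the unequal lists (exact two-sided permutation test, p = 0.0572). Each protein was made in a line of its own, so the residue cannot be told apart from the line beyond these 4 proteins.

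**Figure D4:**
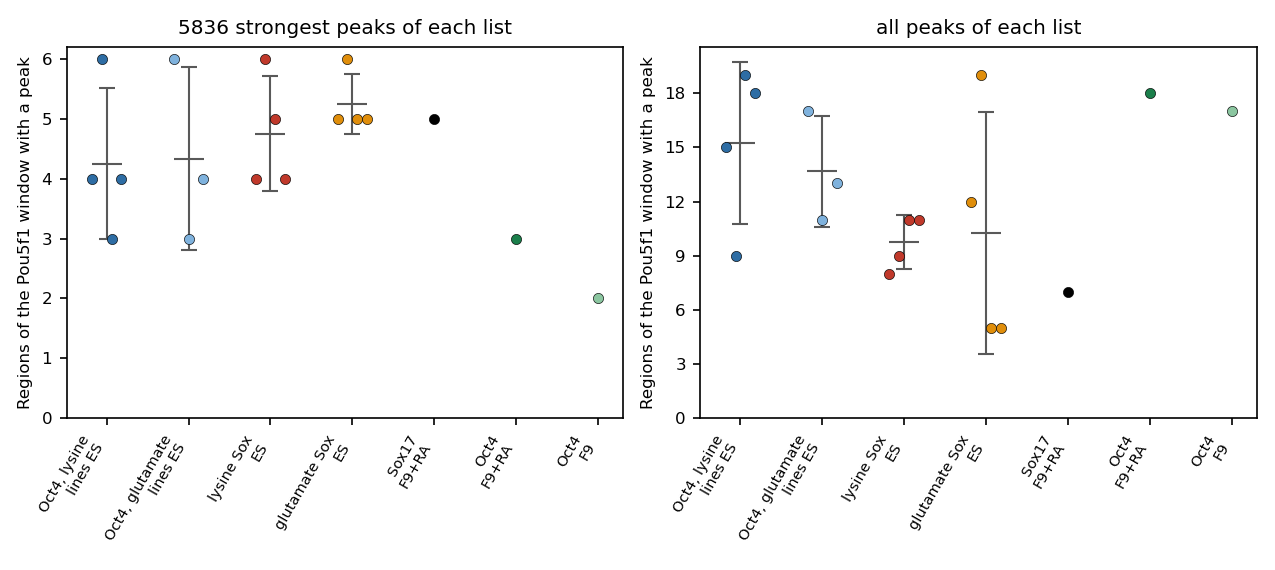
Regions of the Pou5f1 window with a peak in each list (y axis, count) by group (x axis), among the 5836 strongest peaks (left) and among all peaks (right), with bars for the mean ± SD where a group has several lists. On the left the 4 plotted groups of ES lists overlap, between 3 and 6 regions, and on the right the counts spread from 5 to 19.

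The Oct4 lists of a line were set beside its Sox lists by shared elements. Of the 26 elements, 65.4% were held by both Oct4 lists of the Sox17EK line, 34.6% by both of the Sox2 line, 53.8% by both of the Sox2KE line and 61.5% by the list of the Sox17 line. Of elements found in every list of a protein, Sox17EK had 7, all of them also held by both Oct4 lists of its line (41.2% of the 17 Oct4 elements). Sox2 had 8, of which 6 (75.0%) were among the 9 of Oct4 (66.7%). Sox2KE had 14, of which 9 (64.3%) were among the 14 of Oct4 (64.3%). Sox17 had 4, all of them among the 16 of the Oct4 list of its line (25.0%). These lists name V5 beside Oct4, and the part of the tagged protein in the overlap was not tested. Replicates of 1 protein shared 7 elements for Sox17EK (63.6% of A, 87.5% of B), 8 for Sox2 (100% and 88.9%), 14 for Sox2KE (100% and 58.3%) and 4 for Sox17 (44.4% and 80.0%).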

How the data were processed

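Peak lists of 18 of the 20 samples were used, and the 2 mock samples were not analysed here. Each list gives chromosome, start, end, a name with the prefix of the caller MACS, and a score. The deposited score was taken as the authors' −log10 p-value times 10, an inference from its values, since no label states the scale. Start and end, as deposited, are positions in bp (other than a measurement) and are printed 1-based. The build is mm9, per the submitters' processing notes. The aligner, the control library and the caller's settings were not given in the sources used here, and the depth of each library is unknown.

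The window, the lists and the tests were chosen with earlier results of these data known. The shortest list set the number of strongest peaks compared, 5836. Midpoints at most 200 bp apart were linked into regions. Named items are all regions held by at least 2 lists and the highest-ranked one of 1 list, and the 26 elements added after the data were seen. Libraries were set against each other in exact two-sided permutation tests. Nothing in the labels says that A and B are separate cultures, so a p-value here covers the spread between these libraries alone, which can be technical. Linking and tests were tested on simulated data. For the background the genome was divided into windows of 80 kb. Alternatives were all peaks, the 1000 strongest, linking at 500 bp, overlap of intervals by 1 bp, a replicate block, leaving out each replicate, and the elements. Peak sequences and gene names of sites were left out, as no mm9 genome was used. Versions were Python 3.11.15, SciPy 1.17.1, NumPy 2.4.6, pandas 2.3.3 and matplotlib 3.10.9.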

Additional observations from a re-analysis of the deposited data

Results flagged for a closer look

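Among the 4 glutamate Sox lists of ES cells, Sox2KE replicate B had 6 regions of the Pou5f1 window among its 5836 strongest peaks, whereas the other 3 had 5 each. It was singled out because its gap to the others equals the whole range of the group, above Dixon's critical value of 0.829 for 4 samples. The values are whole numbers with ties, so 1 region more is enough to reach it. Of 10 groups of values looked at, chance singles out about 1 in 20. The list has 71693 peaks, against 33123 for Sox2KE replicate A.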

How the results depend on the processing

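None of the 3 differences in regions passed 0.05 under any alternative, so the alternatives bear on their direction only. Lysine minus glutamate Sox was -0.5 as reported and turned to 0.5 among the 1000 strongest peaks (exact p = 0.714). It stayed negative with the other alternatives, and between -0.917 and -0.25 with each replicate left out. Oct4 in lysine minus glutamate lines was -0.0833 and turned to 1.58 with all peaks (exact p = 0.629), to 0.25 among the 1000 strongest (exact p = 1) and to 0.5 with elements and all peaks (exact p = 0.943). It ran from -0.75 to 0.75 with each replicate left out, turning to 0.75 without Sox2KE line A and to 0.333 without Sox17EK line A. Oct4 minus Sox was -0.714 and turned to 4.57 with all peaks (exact p = 0.0572), to 0.571 with elements (exact p = 0.594) and to 6.29 with elements and all peaks (exact p = 0.0513), and ran from -1 to -0.5 with each replicate left out. The cause of these turns was not tested. Elements were chosen after seeing the data. With a replicate block of the letters A and B the values were -0.5 (exact p = 0.667), -0.0833 (exact p = 1) and -0.714 (exact p = 0.238). With all peaks, A lay above B in the Oct4 lists and below it for Sox2 and Sox2KE, so the letters give no pairing.

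The unknown depth sets the limits here. A site missing from a list of 5836 peaks lies under the threshold of that list, which does not show that the factor is absent there. Wide intervals hide the order of sites within them, and peaks tied at 3100 have no order among them.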
